A study of Mus musculus with 6 samples.

Results

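The genes described here are 9 genes of the B cell lineage, taken from the deposited table by their symbols: *Vpreb1*, *Vpreb3* and *Rag1*, which mark B cell precursors, and *Cd79a*, *Cd79b*, *Ms4a1*, *Pax5*, *Ebf1* and *Jchain*, which are used by mature B cells, by the whole lineage or by antibody-secreting cells. All 9 were among the 17854 genes in the table, and all 9 passed the filter on low counts. Bulk RNA was sequenced from sorted Tomato+ cells of the knee joint of male C57BL/6 mice. In these mice Cre under control of *Prrx1*, a gene of limb mesenchyme, permanently switches on the red protein tdTomato, so the label also stays in descendants that no longer express *Prrx1*. The MSC-derived group holds 3 libraries of Tomato+ cells recovered from the repaired cartilage of mice with osteoarthritis induced by cutting the anterior cruciate ligament (ACLT). Those mice carried no label of their own and had received, by injection into the joint, *Prrx1*-lineage mesenchymal stromal cells (MSCs) sorted from the inguinal white fat of *Prrx1-Cre; R26tdTomato* donors. The endogenous group holds 3 libraries of articular Tomato+ cells from *Prrx1-Cre; R26tdTomato* mice of matched age and sex, in which the label arose in the animal itself. The age at collection was not given in the sources used here, no gate against blood cells is described for this sort, and both groups are labelled as chondrocytes. The study counts 3 mice per group without saying whether a library is a single mouse, so p-values measure only the spread between libraries.

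B cells arise in the bone marrow. A precursor first expresses *Rag1*, whose protein cuts the immunoglobulin genes for rearrangement, and then tests a new heavy chain on its surface together with a surrogate light chain, of which VpreB proteins form a part. CD79A and CD79B are the signalling chains of this pre-B cell receptor and of the later B cell receptor. *Ebf1* and *Pax5* encode transcription factors that set and hold B cell identity, *Ms4a1* encodes CD20, a surface protein of more mature B cells, and *Jchain* encodes the chain that joins IgM and IgA into polymers. Some of these genes are not restricted to B cells. *Ebf1* is also a gene of fat cell precursors and other stromal cells, and *Jchain* is also made by plasmacytoid dendritic cells.

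The libraries held 22060628 to 24559959 expected counts in the MSC-derived group and 23441005 to 24881796 in the endogenous group, and the floor of 3 counts lay between 0.121 and 0.136 CPM (counts scaled to equal library size). This floor covers counting error only. Endogenous replicate 1 stood apart from the other two endogenous libraries. It had 3449 genes at 0 counts, compared with 1323 and 1375. Of the 2678 genes with 10 to 100 counts in both other endogenous libraries, 23.6% were at 0 in replicate 1, whereas the same share was 0.27% for replicate 2 and 0.326% for replicate 3. For the 9 genes, for the B lineage lists and for other genes whose fold moved by more than 1.5 times, values without this library are therefore given too. The chondrocyte label was checked against 10 cartilage genes. All 10 were detected in every library and all 10 were lower in the MSC-derived cells, where their summed level was 435 to 447 TPM (transcript abundance corrected for length and scaled to an equal total per library), against 22973 to 24836 TPM in the endogenous cells.

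Upstream sequence is shown for *Cd79a*, *Vpreb1* and *Vpreb3*, because *Cd79a* is the receptor chain against which the other genes are set below, and *Vpreb1* and *Vpreb3* are the precursor genes that differed between the groups. RefSeq promoters (GRCm38.p6) were found for 7 of the 9 genes, and *Cd79b* and *Ms4a1* had no entry. Each stretch holds the 250 bases before the annotated start, read 5′ to 3′ on the gene's own strand, with motif matches in capitals.
*Cd79a*, chr7:24897247-24897496, plus strand: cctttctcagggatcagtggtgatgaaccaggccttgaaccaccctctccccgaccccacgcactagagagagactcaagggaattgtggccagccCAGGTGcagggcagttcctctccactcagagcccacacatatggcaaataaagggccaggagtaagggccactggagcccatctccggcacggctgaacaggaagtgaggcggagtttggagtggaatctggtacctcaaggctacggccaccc
*Vpreb1*, chr16:16869256-16869505, minus strand: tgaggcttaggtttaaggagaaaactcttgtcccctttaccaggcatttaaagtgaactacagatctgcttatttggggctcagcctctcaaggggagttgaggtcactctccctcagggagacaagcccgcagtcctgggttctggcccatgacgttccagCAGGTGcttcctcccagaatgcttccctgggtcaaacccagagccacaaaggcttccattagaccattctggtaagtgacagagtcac
*Vpreb3*, chr10:75948050-75948299, plus strand: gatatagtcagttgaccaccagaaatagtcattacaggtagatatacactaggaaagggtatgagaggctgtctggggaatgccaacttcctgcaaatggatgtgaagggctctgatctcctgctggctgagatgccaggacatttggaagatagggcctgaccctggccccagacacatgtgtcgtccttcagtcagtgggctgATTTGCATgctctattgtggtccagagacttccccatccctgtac

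The capitals in *Cd79a* and *Vpreb1* mark the E-box CAGGTG, searched on both strands, which 17.2% of all 32851 promoter stretches of this length hold. Those in *Vpreb3* mark ATTTGCAT, the reverse complement of the octamer ATGCAAAT, which 1.6% of the stretches hold, 45 to 38 bases before the start. The EBF palindrome CCCNNGGG (11.8% of all stretches) and the PU.1 sequence GAGGAAGT (2.44%) had no match in these windows, and no capitals of different motifs overlapped. Only these exact letters were searched, so variant sites would be missed and a lack of matches does not show a lack of sites. Among the stretches not printed, that of *Rag1* held the E-box, and those of *Pax5*, *Ebf1* and *Jchain* held none of the 4 motifs. For *Rag1*, *Pax5*, *Jchain* and start site 2 of *Ebf1*, the 30 bases after the start were not found in an annotated transcript of the gene.

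Of the 9 genes, 5 passed the adjusted threshold of 0.05 with higher values in the MSC-derived cells, 1 passed with lower values, and 3 did not pass. Among all 14289 genes tested, 31.3% were called higher and 30.3% lower, 61.6% in either direction. *Cd79a*, *Cd79b*, *Jchain*, *Vpreb1* and *Vpreb3* rose, *Ebf1* fell, and *Ms4a1*, *Pax5* and *Rag1* were not called. The median log2 fold change was 2.45 over the 9 genes and 0.05 over all genes tested, where positive values mean higher in the MSC-derived cells and SE below is the standard error of this value. The values of both groups did not overlap for 6 genes that were higher and 1 that was lower, compared with 38.2% and 34.1% of all genes tested, 72.4% in either direction. Without endogenous replicate 1, 8 of the 9 genes were called higher and *Ebf1* lower, with 37.8% and 38.6% as the shares over all genes in that fit. In bulk RNA, fewer cells of a type and less RNA per cell cannot be told apart.

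**Figure D1:**
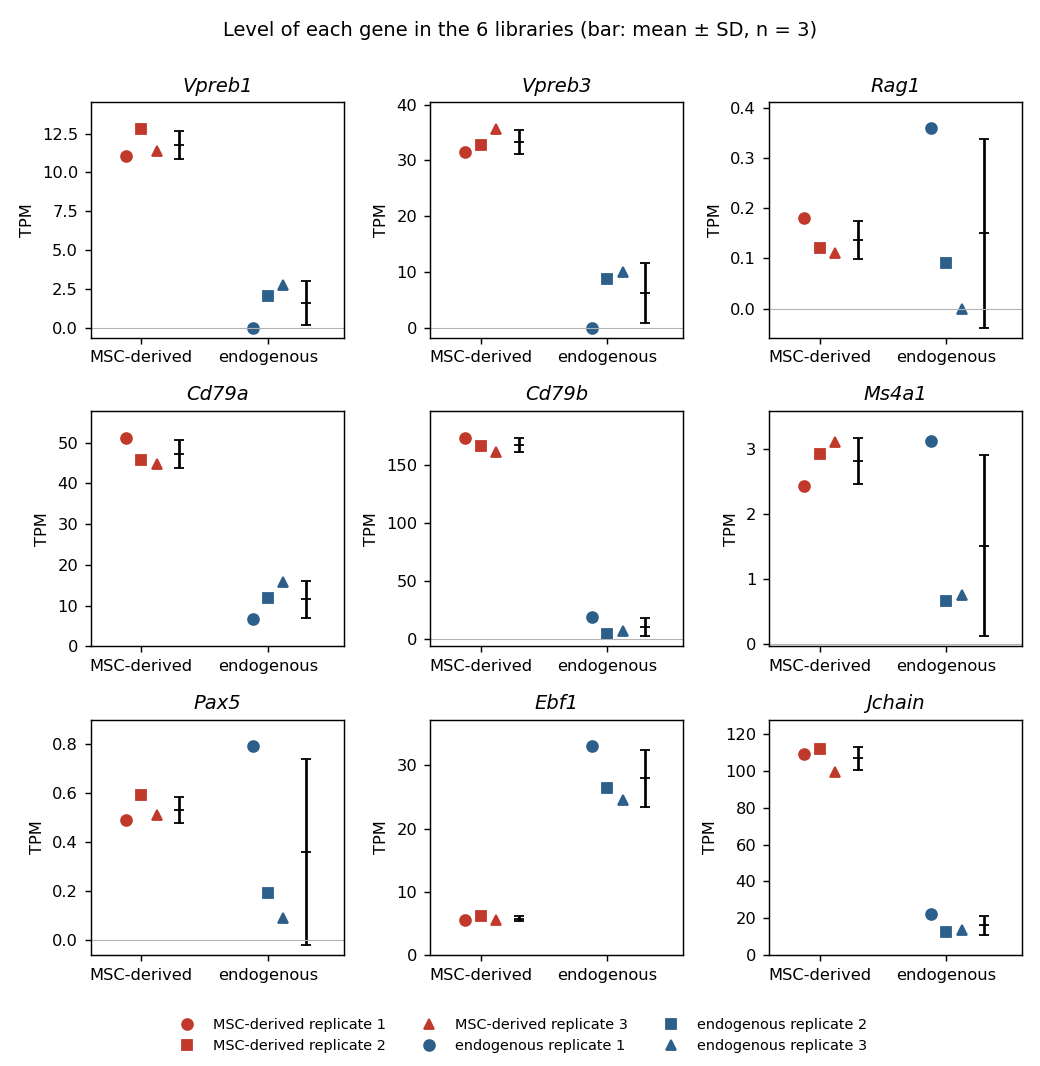
TPM of each of the 9 genes in every library, with the mean and SD of each group of 3 as a black bar. The MSC-derived libraries lie close together in each panel, and endogenous replicate 1 (blue circle) is at 0 for *Vpreb1* and *Vpreb3* but is the highest endogenous library for *Rag1*, *Ms4a1*, *Pax5*, *Cd79b*, *Ebf1* and *Jchain*.

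Among the precursor genes, *Vpreb3*, whose protein binds newly made immunoglobulin chains in early B cells, had 265, 267 and 274 counts in the MSC-derived libraries and 0, 51 and 60 in the endogenous ones. The groups did not overlap, and the lowest value was that of endogenous replicate 1. *Vpreb3* was at 33.3 ± 2.15 TPM in the MSC-derived cells and 6.19 ± 5.40 TPM in the endogenous cells (SD, n = 3). Its log2 fold change was 2.80 (SE 0.94, edgeR adjusted p = 0.0336). Without endogenous replicate 1 the log2 fold change was 2.16 (SE 0.20, edgeR adjusted p = 5.34e-09). *Vpreb1*, the surrogate light chain gene itself, had 128, 141 and 119 counts in the MSC-derived libraries and 0, 16 and 22.8 in the endogenous ones. The groups again did not overlap, with a log2 fold change of 3.24 (SE 0.93, edgeR adjusted p = 0.0180) that became 2.61 (SE 0.31, edgeR adjusted p = 2.27e-07) without endogenous replicate 1. For both genes the call was lost when any MSC-derived library or endogenous replicate 2 was left out, with an edgeR adjusted p of 0.0517 to 0.0676 for *Vpreb1* and 0.0689 to 0.101 for *Vpreb3*. In those fits, each with 1 library fewer, the log2 fold changes were 3.19 to 3.39 for *Vpreb1* and 2.75 to 3.07 for *Vpreb3*.

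The fractional counts of *Vpreb1* come from reads that RSEM divided between it and its near-identical copy *Vpreb2*, so that the separate values are uncertain. Their sum was 147, 152 and 129 counts in the MSC-derived libraries and 0, 16 and 24 in the endogenous ones. Treated as a single gene, the pair had a log2 fold change of 3.35 (SE 0.92, edgeR adjusted p = 0.0150).

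*Rag1* was low throughout. It had 23, 15 and 13 counts in the MSC-derived libraries and 28, 8 and 0 in the endogenous ones, so the groups overlapped and the highest and the lowest value both lay in the endogenous group. Its log2 fold change of 0.39 (SE 1.12, edgeR adjusted p = 0.776) was smaller than its error, turned to -0.19 without endogenous replicate 3 and reached 1.92 (SE 0.82, edgeR adjusted p = 0.0394) without endogenous replicate 1. *Rag2*, the partner of *Rag1* in the same nuclease, had 3, 10 and 23 counts against 0, 1 and 2 and was too low for the filter over all libraries. It passed the filter without endogenous replicate 1, with a log2 fold change of 2.81 (SE 1.06, edgeR adjusted p = 0.0213).

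Among the receptor chains, *Cd79b* changed most of the 9 genes. It had 3585, 3284 and 3027 counts in the MSC-derived libraries and 237, 68 and 98 in the endogenous ones. The lowest MSC-derived library was far above the highest endogenous one, and the log2 fold change was 4.54 (SE 0.43, edgeR adjusted p = 6.13e-05). It was 5.19 (SE 0.10, edgeR adjusted p = 2.44e-20) without endogenous replicate 1. *Cd79a* had 829, 706 and 658 counts in the MSC-derived libraries and 66, 132 and 185 in the endogenous ones. It also separated the groups, with a log2 fold change of 2.45 (SE 0.33, edgeR adjusted p = 0.000426) that became 2.09 (SE 0.14, edgeR adjusted p = 2.37e-11) without endogenous replicate 1. The products of these genes form a dimer, but the genes differed in their proportion. Within a library *Cd79b* was at 3.38 to 3.64 times the TPM of *Cd79a* in the MSC-derived cells, at 0.403 and 0.414 times in endogenous replicates 2 and 3 and at 2.83 times in endogenous replicate 1. The macrophage list of 8 genes moved the same way, with all 8 called higher and a summed level of 13728 to 14060 TPM against 44.8 to 64.5 TPM. Its part in the *Cd79b* result was not tested.

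*Ms4a1* had 135, 154 and 156 counts in the MSC-derived libraries and 104, 25 and 30 in the endogenous ones. The groups did not overlap on the CPM scale, but endogenous replicate 1 came close to the MSC-derived libraries, and in TPM it was the highest of the 6 at 3.13. The log2 fold change of 1.41 (SE 0.57) did not pass the threshold (edgeR adjusted p = 0.0653), whereas DESeq2 called it (adjusted p = 0.0347) and the edgeR fit without endogenous replicate 1 gave 2.32 (SE 0.28, adjusted p = 3e-07). *Pax5* had 78, 90 and 74 counts in the MSC-derived libraries and 75, 21 and 10 in the endogenous ones, so that the groups overlapped. Its log2 fold change was 1.10 (SE 0.71, edgeR adjusted p = 0.216) over all libraries and 2.25 (SE 0.41, edgeR adjusted p = 4.65e-05) without endogenous replicate 1.

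*Jchain* had 4153, 4054 and 3430 counts in the MSC-derived libraries and 505, 331 and 377 in the endogenous ones. The groups were well apart, with 106.9 ± 6.46 TPM against 16.2 ± 5.17 TPM (SD, n = 3) and a log2 fold change of 3.18 (SE 0.17, edgeR adjusted p = 2.89e-06), or 3.34 (SE 0.08) without endogenous replicate 1. Of 7 markers of plasmacytoid dendritic cells 5 were higher and 2 lower, with a summed level of 258 to 264 TPM in the MSC-derived cells and 132 to 152 TPM in the endogenous cells. Among them *Siglech*, a surface lectin of these cells, had a log2 fold change of 1.85 and *Bst2* of 2.02 (SEs 0.43 and 0.16, edgeR adjusted p = 0.00710 and 2.14e-05). The lower genes, named after their values were seen, were *Tcf4* and *Pacsin1* at -1.56 and -2.72 (SEs 0.13 and 0.43, edgeR adjusted p = 2.93e-05 and 0.00105). *Bst2* alone was at 168.9 TPM in the MSC-derived cells and 56.0 TPM in the endogenous cells, and *Tcf4* at 16.5 and 68.5 TPM. The part of these cells in the *Jchain* result was not tested.

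*Ebf1* went the other way. It had 693, 721 and 599 counts in the MSC-derived libraries and 2309, 1933 and 1923 in the endogenous ones, 5.74 ± 0.354 TPM against 28.0 ± 4.52 TPM (SD, n = 3). Each endogenous library was above each MSC-derived one, and the log2 fold change was -1.69 (SE 0.12, edgeR adjusted p = 1.22e-05), or -1.64 (SE 0.08) without endogenous replicate 1. Its relatives *Ebf2* and *Ebf3*, transcription factor genes of stromal cells, had log2 fold changes of -2.39 and -4.35 (SEs 0.24 and 0.24, edgeR adjusted p = 8.41e-05 and 3.30e-06). *Ebf4* had 4, 2 and 0 counts in the MSC-derived libraries and 0, 30 and 18 in the endogenous ones and was not tested over all libraries. Without endogenous replicate 1 its log2 fold change was -3.63 (SE 0.77, edgeR adjusted p = 0.000254). Of the 9 tested genes in a list of EBF relatives and stromal genes, 7 were lower, 1 was not called and 1 was higher, namely *Pparg*, a regulator of fat cell formation that is named here after its value was seen. In the fit without endogenous replicate 1, 9 of 10 tested genes of this list were lower and 1 was higher. The summed level of the list was 269 to 286 TPM in the MSC-derived cells and 4541 to 5307 TPM in the endogenous cells. The part of these cells in the *Ebf1* result was not tested.

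**Figure D2:**
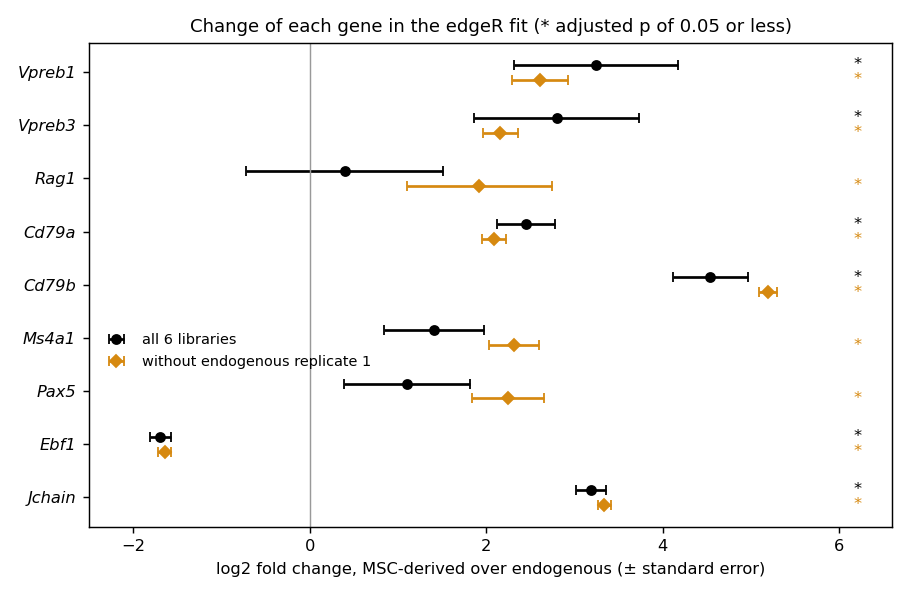
Log2 fold change of each gene, MSC-derived over endogenous, with its SE, in the edgeR fit of all 6 libraries (black) and without endogenous replicate 1 (orange). Stars mark an adjusted p of 0.05 or less. All but *Ebf1* are above 0 in both fits, and *Rag1*, *Ms4a1* and *Pax5* pass the threshold only in the second.

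On the TPM scale, which allows for gene length, the order in the MSC-derived cells was *Cd79b* at 166.8 ± 5.99, *Jchain* at 106.9 ± 6.46, *Cd79a* at 47.3 ± 3.51, *Vpreb3* at 33.3 ± 2.15 and *Vpreb1* at 11.8 ± 0.917 (SD, n = 3). *Ebf1*, *Ms4a1*, *Pax5* and *Rag1* followed at 5.74, 2.82, 0.53 and 0.137 TPM, and neighbours in this order were apart by more than their SDs. In the endogenous cells *Ebf1* stood first at 28.0 ± 4.52, followed by *Jchain* at 16.2 ± 5.17, *Cd79a* at 11.5 ± 4.58, *Cd79b* at 10.1 ± 7.77 and *Vpreb3* at 6.19 ± 5.40 TPM (SD, n = 3). *Vpreb1* was at 1.59 ± 1.42, *Ms4a1* at 1.51 ± 1.40, *Pax5* at 0.357 ± 0.379 and *Rag1* at 0.150 ± 0.187 TPM. From *Jchain* downwards no neighbours in this order differed beyond their SDs, which measure the spread between libraries. Within every endogenous library, however, *Ms4a1* was above *Pax5* and *Pax5* above *Rag1*. *Vpreb3* was above *Vpreb1* in endogenous replicates 2 and 3. The other neighbours from *Jchain* downwards changed their order between libraries.

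To set precursor genes against the others, the summed TPM of *Vpreb1*, *Vpreb3* and *Rag1* was taken as a share of the summed TPM of all 9 genes in each library. The share was 11.1%, 12.1% and 13.0% in the MSC-derived libraries and 0.422%, 16.0% and 17.1% in the endogenous ones. Endogenous replicate 1 was far below every other library, and endogenous replicates 2 and 3 were above all MSC-derived libraries. The means were 12.1% ± 0.963 and 11.2% ± 9.32 (SD, n = 3), an order that turned to 12.3% and 17.5% with *Ebf1* left out of the total, and no test was made on this sum over chosen genes. Against *Cd79a* and *Cd79b* alone the precursor genes made up 16.0% to 18.6% in the MSC-derived libraries and 1.38%, 39.3% and 36.1% in the endogenous ones. In these shares the endogenous libraries therefore lay on both sides of the MSC-derived ones, with only endogenous replicate 1 below them. No direction of shift of the precursor genes as a group is read from this. Against *Cd79a* alone, *Vpreb1* was higher in the MSC-derived libraries than in any endogenous one, while *Vpreb3* overlapped with endogenous replicates 2 and 3. *Rag1* was at 0.00245 to 0.00351 times *Cd79a* in the MSC-derived libraries and at 0.00758 and 0 times in endogenous replicates 2 and 3.

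Relative to *Cd79a* in the same library, the other genes fell into several patterns, given here as a description with no test. *Vpreb3* was at 0.613 to 0.795 times the TPM of *Cd79a* in the MSC-derived libraries and at 0.730 and 0.624 times in endogenous replicates 2 and 3. *Ms4a1* was at 0.0474 to 0.0694 times in the MSC-derived libraries and at 0.0556 and 0.0473 times in those 2 endogenous libraries. For *Pax5* the values were 0.00956 to 0.0129 and 0.0160 and 0.00567. For *Vpreb3* the values of endogenous replicates 2 and 3 lay within the MSC-derived range. For *Ms4a1* replicate 2 lay within it and replicate 3 just below it. For *Pax5*, from 21 and 10 counts, replicate 2 lay above it and replicate 3 below it. *Vpreb1* was at 0.216 to 0.280 times *Cd79a* against 0.170 and 0.173 times, without overlap. *Jchain* was at 2.13 to 2.45 times *Cd79a* in the MSC-derived libraries and at 1.07 and 0.868 times in endogenous replicates 2 and 3, and *Ebf1* at 0.109 to 0.134 times against 2.22 and 1.54 times. In endogenous replicate 1 the proportions were different, with *Vpreb1* and *Vpreb3* at 0, *Ms4a1* at 0.465, *Pax5* at 0.117 and *Rag1* at 0.0535 times *Cd79a*.

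**Figure D3:**
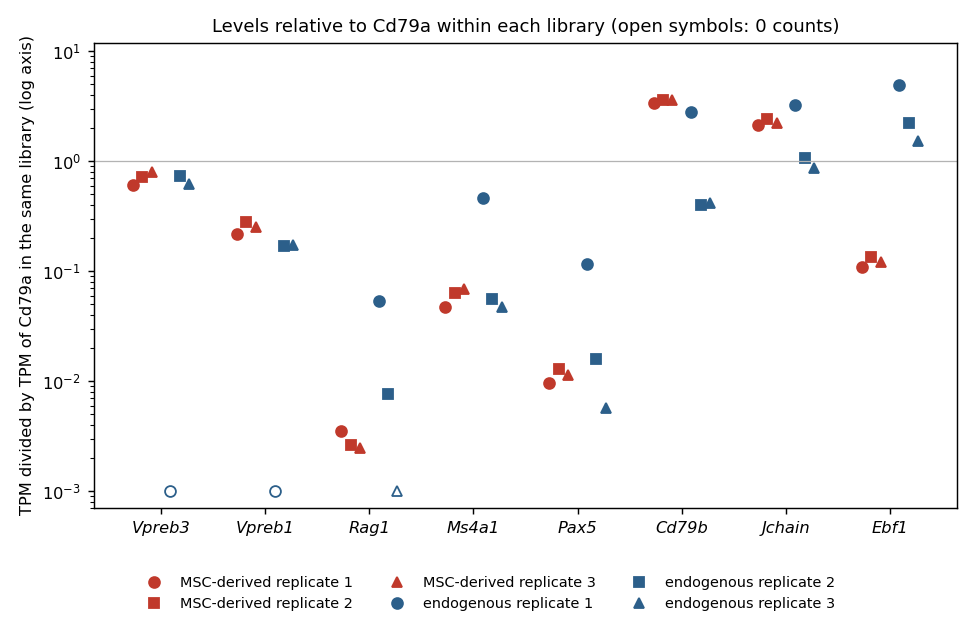
TPM of each gene divided by the TPM of *Cd79a* in the same library, on a log axis, with values from 0 counts drawn as open symbols at the foot. The MSC-derived libraries and endogenous replicates 2 and 3 lie close together for *Vpreb3* and *Ms4a1* and apart for *Cd79b* and *Ebf1*. For *Pax5* endogenous replicates 2 and 3 lie on either side of the MSC-derived libraries. Endogenous replicate 1 (blue circle) departs from the other libraries in *Ms4a1*, *Pax5* and *Rag1*.

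The other genes of early B cells were read from a list of 16, of which 14 were tested, 8 were higher and 4 lower, with a median log2 fold change of 0.90. Without endogenous replicate 1 all 16 were tested, 9 were higher and 4 lower, with a median of 1.13. *Igll1*, which encodes the other part of the surrogate light chain, had 267, 231 and 184 counts in the MSC-derived libraries and 0, 16 and 21 in the endogenous ones, a log2 fold change of 4.12 (SE 0.84, edgeR adjusted p = 0.00379). *Dntt*, whose enzyme adds bases at the joints of rearranged genes, had 206, 140 and 156 counts against 0, 18 and 24 (log2 fold change 3.50, SE 0.90, edgeR adjusted p = 0.0115). Both follow the pattern of *Vpreb1* and *Vpreb3*, with no count in endogenous replicate 1. Without that library the log2 fold change was 3.49 (SE 0.27) for *Igll1* and 2.87 (SE 0.30) for *Dntt*. Relative to *Cd79a*, *Igll1* was at 0.334 to 0.390 times in the MSC-derived libraries and at 0.145 and 0.136 times in endogenous replicates 2 and 3. For *Dntt* these values were 0.0858 to 0.107 and 0.0590 and 0.0555. *Bst1* had a log2 fold change of 3.97 (SE 0.84), or 3.33 (SE 0.15) without endogenous replicate 1, and *Vpreb2* of 4.81 (SE 1.03), the latter from at most 19.3 counts. The lower genes were *Mme*, *Lef1*, *Akap12* and, named after its value was seen, *Sox4*, with log2 fold changes of -4.13, -3.37, -2.16 and -1.75. These 4 genes are used by many other cells, among them stromal and skeletal cells, and had 438 or more counts in each endogenous library.

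Of 23 other mature B cell genes in the table, 22 were tested, 16 were higher and 0 lower by edgeR, with a median log2 fold change of 2.92. Without endogenous replicate 1, 22 of 23 were higher and 0 lower, with a median of 2.34. At an unadjusted p under 0.05, edgeR found 18 higher and 0 lower, and at the adjusted threshold DESeq2 found 17 and 0 and limma 20 and 0. The largest changes were those of *Cd180*, *Bank1* and *Ly86*, with log2 fold changes of 6.89, 6.87 and 6.35 (SEs 0.20, 0.60 and 0.32). *Cd180* and *Ly86* are also genes of macrophages and dendritic cells. *Bank1*, an adaptor of B cell receptor signalling, had 1838, 1710 and 1641 counts against 1, 7 and 34 and a log2 fold change of 6.28 (SE 0.20) without endogenous replicate 1. It was at 0.624 to 0.727 times *Cd79a* in the MSC-derived libraries but at 0.0177 and 0.0485 times in endogenous replicates 2 and 3. Immunoglobulin constant genes were not analysed here.

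All 14 genes of a list for signalling below the pre-B and B cell receptors were higher, with a median log2 fold change of 4.23, or 4.34 with all 14 higher when endogenous replicate 1 was left out. This list includes *Cd79a* and *Cd79b*. *Blnk*, the adaptor that links the receptor to its kinases, had a log2 fold change of 5.53, the phosphatase gene *Ptpn6* of 4.79 and the kinase gene *Syk* of 4.77 (SEs 0.59, 0.15 and 0.33, edgeR adjusted p = 0.000124, 2.45e-07 and 1.19e-05). Several of these signalling genes, *Ptpn6* and *Syk* among them, are shared with myeloid cells, and the macrophage values stand beside *Cd79b* above. A list of 8 neutrophil genes was likewise higher in full, including *Ly6g* and *S100a8* (log2 fold changes 4.12 and 4.63), with 139485 to 148362 TPM against 7134 to 10413 TPM. All 8 common leukocyte genes were higher too, among them *Ptprc* (CD45) and *Cd52*, with log2 fold changes of 4.20 and 3.89, and their summed level was 5020 to 5037 TPM against 437 to 487 TPM. The part of these cells in the signalling result was not tested.

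The plasma cell list had 9 tested genes, of which 4 were higher and 3 lower, with a median log2 fold change of 1.35. The counts were the same without endogenous replicate 1, with a median of 0.72. *Mzb1*, a chaperone gene of antibody-secreting cells, had 255, 289 and 220 counts in the MSC-derived libraries and 29, 13 and 22 in the endogenous ones, a log2 fold change of 3.50 (SE 0.35, edgeR adjusted p = 8.23e-05). *Slamf7* and *Prdm1* rose as well, by log2 fold changes of 3.13 and 2.85. *Fkbp11*, *Sdc1* and *Xbp1*, genes of secretory and matrix-producing cells as well as plasma cells, fell by 2.75, 2.15 and 0.47 on the log2 scale. *Tnfrsf17*, the receptor BCMA of plasma cells, had 7, 4 and 8 counts against 0, 0 and 1 and was not tested, and it is named here after its values were seen.

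Of 13 transcription factor genes with roles in B cell development, 4 were higher, 5 lower and 4 not called, with a median log2 fold change of 0.21. Without endogenous replicate 1, 7 were higher and 5 lower, with a median of 0.41, so that the balance of the list rests on that library. *Irf8*, *Spi1* and *Ikzf1*, which are shared with myeloid cells, had log2 fold changes of 4.66, 3.99 and 3.82 (SEs 0.28, 0.13 and 0.14). *Erg*, *Mef2c* and *Foxo1*, which endothelial or skeletal cells also use, had -2.51, -2.19 and -2.13 (SEs 0.12, 0.09 and 0.07). Neither *Ebf1* nor *Pax5* is in this list.

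Within the endogenous group, replicate 1 was below both other libraries for *Vpreb1*, *Vpreb3* and *Cd79a* and above both for the remaining 6 genes, on the TMM-scaled CPM scale. Over all genes tested it was below both for 47.3% and above both for 42.8%, so that a place outside the range of the other libraries was common. Of the 16 other early B genes, 10 were below both and 6 were at 0 counts there, and of the 23 other mature genes 13 were below both and 1, *Cxcr5* (named after its value was seen), was at 0. Of all 14289 genes tested, 765 were at 0 in this library. The 0 counts of *Vpreb3* in that library have an upper 95% Poisson bound of 3.69 counts, while the counts of 51 and 60 in the other libraries have intervals of 38 to 67.1 and 45.8 to 77.2. The opposite held for *Ms4a1*, at 104 counts (85 to 126) against 25 and 30, and for *Pax5*, at 75 counts (59 to 94) against 21 and 10. These intervals cover counting error only. Among the other blood cell lists, all 8 neutrophil, 7 of 8 macrophage and 7 of 8 erythroid genes were also lowest in this library. Of 11 T and NK cell genes 6 were below both and 4 above both, with 28.1 TPM in sum, compared with 31.9 and 31.3 TPM. Of 8 common leukocyte genes 4 were below both and 3 above both.

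**Figure D4:**
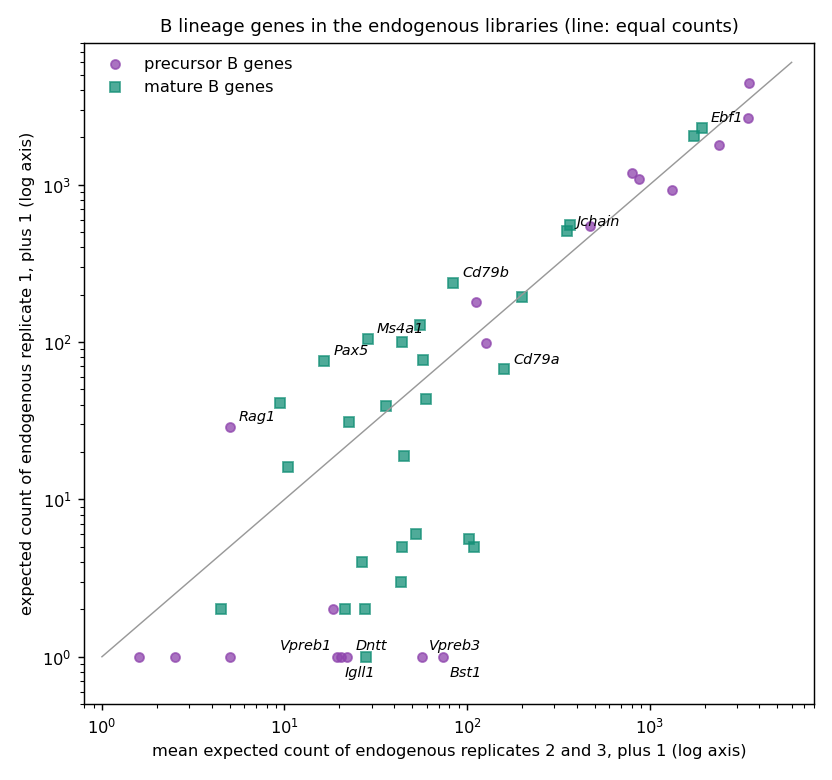
Expected counts of the early and mature B lineage genes reported here in endogenous replicate 1 against the mean of endogenous replicates 2 and 3, both plus 1 on log axes, with a line of equal counts. *Vpreb1*, *Vpreb3*, *Igll1*, *Dntt* and *Bst1* lie at the foot, at 0 counts in replicate 1, whereas *Rag1*, *Pax5*, *Ms4a1* and *Cd79b* lie above the line.

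Other lymphoid and marrow genes were read from marker lists. Of 10 tested T and NK cell genes 8 were higher and 0 lower by edgeR, as also at an unadjusted p under 0.05 and by DESeq2 (10 and 0 without endogenous replicate 1), among them *Cd3d* and *Cd3e*, subunits of the T cell receptor complex, with log2 fold changes of 2.24 and 3.12 (SEs 0.77 and 0.96, edgeR adjusted p = 0.0370 and 0.0244). These values were 3.43 and 2.48 (SEs 0.51 and 0.47) without endogenous replicate 1. All 8 erythroid genes were higher, including *Hbb-bt* and *Hbb-bs* at log2 fold changes of 2.35 and 2.26, with a summed level of 79087 to 81395 TPM against 18171 to 24553 TPM. The erythroid, neutrophil and B precursor genes thus had counts above 0 in the endogenous libraries as well as in the MSC-derived ones, with some exceptions. *Vpreb1*, *Vpreb3* and 6 further early B genes were at 0 in endogenous replicate 1, *Rag1* in replicate 3 and *Vpreb2* in replicate 2. Some early B genes above 0 stayed under the floor of 3 counts, such as *Rag2* at 1 and 2 counts in endogenous replicates 2 and 3. *Adgre1* and *Csf1r* of the macrophage list had log2 fold changes of 8.34 and 5.88, above those of all 9 B lineage genes. *Col2a1* and *Acan* of the cartilage list had -6.30 and -5.55.

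By the distance between centred log2 CPM profiles over the 6 libraries, the genes most like *Cd79a* were *Slc25a45*, *Stom* and *Dera*, at distances of 0.259, 0.339 and 0.34. The genes nearest to *Vpreb3* were *Fignl1*, *Slc38a5* and *Hbq1b*, at 0.353, 0.404 and 0.415, and those nearest to *Ebf1* were *Mprip*, *Cry1* and *Il6st*, at 0.0941, 0.109 and 0.125.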

How the data were processed

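RNA of Tomato+ cells was measured in 6 libraries, 3 per group, grouped by GEO's sample titles. Before deposit the authors cleaned the reads (SOAPnuke), mapped them (HISAT2, Bowtie2) and estimated gene abundance (RSEM). The submitters' processing notes name the mm9 build, Bowtie2 2.2.5 and RSEM 1.2.12. The deposited table, as its file headers show, holds expected counts (not normalized), TPM and FPKM (both scaled by the authors for length and depth) and a normalised signal, expected counts times a factor per library, which the authors made and which was used only as a check. The authors' 8 columns of group averages were not used.

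Expected counts were rounded, which changed 20.6% of them. Genes were filtered with filterByExpr, scaled by TMM and compared with edgeR's quasi-likelihood test (edgeR 4.0.16, R 4.3.3) with Benjamini-Hochberg adjustment over 14289 genes at a threshold of 0.05. Standard errors are the log2 fold change divided by the square root of F. DESeq2 1.42.0, limma 3.58.1 (log2 FPKM with a pseudocount of 1 or 0.1), other scalings and filters, a replicate block and leaving out each library were alternatives. Totals of 22060628 to 24881796 counts give a floor of 3 counts, 0.121 to 0.136 CPM. The scripts were tested on simulated counts. A first limit on the share of changes recovered was not met and was replaced by limits on sign, bias and false calls. With 3 against 3 libraries an exact permutation test cannot go below p = 0.1, so none was used.

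The 9 genes and all gene lists (precursor and mature B cell, receptor signalling, plasma cell, transcription factor, stromal and cell type markers) were chosen with earlier results of these data known. Genes named besides the 9 were the 3 called genes with the largest rise and the 3 with the largest fall in each B lineage list, *Ebf2* to *Ebf4*, *Igll1*, *Vpreb2*, *Rag2* and *Dntt*, the first 2 genes of each marker list, and the 3 genes nearest in profile to *Cd79a*, *Vpreb3* and *Ebf1*. *Ighm* was not analysed here, and a further gene of the naming rule is not reported here. Promoters came from RefSeq on GRCm38.p6, another build than mm9, and no coordinate was taken from the deposited table.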

Additional observations from a re-analysis of the deposited data

How the results depend on the processing

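*Cd79a*, *Cd79b*, *Jchain* and *Ebf1* kept their direction and call in all 16 alternatives. The number of the 9 genes called higher ranged from 3 to 8 when single libraries were left out. It was 3 without any MSC-derived library or endogenous replicate 2, where *Vpreb1* and *Vpreb3* were lost, and 8 without endogenous replicate 1. *Ebf1* alone was lower throughout. *Ms4a1* passed in 4 alternatives and *Pax5* in 1. *Rag1* passed without endogenous replicate 1 (log2 fold change 1.92) and turned to a log2 fold change of -0.19 (edgeR adjusted p = 0.85) without endogenous replicate 3. The cause was not tested. Over all genes, 3672 to 5563 were called higher and 3761 to 5686 lower. The precursor share of the MSC-derived libraries was 4.52% from expected counts, which are not divided by length, and 16.9% without *Jchain*, which shrinks the total. The endogenous share was 2.27% and 13.8% under these settings, and 17.5% without *Ebf1*, where the MSC-derived share was 12.3%. The MSC-derived share ranged from 11.6% to 12.5% when MSC-derived libraries were left out, and the endogenous share from 8.22% to 16.5% when endogenous libraries were. Libraries of the same number come from different mice, and their deviations correlated at 0.0187, 0.00823 and 0.0165. With the replicate block, 4103 genes were called higher and 3920 lower, with 5 of the 9 genes higher and 1 lower, and it changed no call among the 9. Summing *Vpreb1* and *Vpreb2*, and the list counts without endogenous replicate 1, were chosen after seeing the data. *Rag2*, *Ebf4* and *Tnfrsf17* had too few counts to be tested in the edgeR fit of all libraries. *Rag2* and *Ebf4* were tested in the fit without endogenous replicate 1.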
